A study of Mus musculus with 12 samples.

Results

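The major histocompatibility complex (MHC) genes of the mouse lie in the H2 locus, and 28 of the 25093 genes in the count table carried a symbol beginning with H2-. They were taken by that symbol alone and then split into classes. The classical class I genes were H2-K1 and H2-D1. The nonclassical class I genes were H2-Q1, H2-Q2, H2-Q4, H2-Q6, H2-Q7, H2-Q10, H2-T3, H2-T22, H2-T23, H2-T24, H2-M3, H2-M5 and H2-M9. The classical class II genes were H2-Aa, H2-Ab1 and H2-Eb1, and the nonclassical class II genes were H2-DMa, H2-DMb1, H2-DMb2 and H2-Ob. The pseudogenes, by the biotype that the authors deposited and including genes that are intact in some strains only, were H2-K2, H2-Q5, H2-T10, H2-Bl and H2-T-ps. The remaining gene, H2-Ke6, encodes a hydroxysteroid dehydrogenase and no MHC molecule.

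Class I molecules are heavy chains that pair with beta-2-microglobulin and display peptides from inside the cell to CD8 T cells and natural killer cells, and nearly all nucleated cells make them. Class II molecules are dimers of an alpha and a beta chain that display peptides taken up from outside to CD4 T cells, and they are made mainly by macrophages, dendritic cells and B cells. In both classes the promoters share short elements that are bound by factors working with the coactivators NLRC5 for class I and CIITA for class II.

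RNA was sequenced from satellite cells, the muscle stem cells, of mice aged 3 to 4 months. The QSC Gli3 Ctr group held 3 libraries of quiescent cells from Pax7-CreERT2/+; Gli3+/+; R26R-YFP mice, and the QSC Gli3 KO group held 3 libraries from Pax7-CreERT2/+; Gli3fl/fl; R26R-YFP mice, in which Cre under control of Pax7 removes an exon of Gli3 in satellite cells after tamoxifen. Control mice thus carried the Cre and the reporter too, and the paper states that mice of both genotypes were given tamoxifen, by injection and then in the diet. Quiescent satellite cells (QSCs) were sorted from uninjured hindlimb muscle as α7-integrin+ CD34+ cells, and each library pooled more than a single mouse. Activated satellite cells (ASCs) were sorted as α7-integrin+ VCAM1+ cells 3 days after cardiotoxin injury, and each library came from a single mouse. Both sorts left out cells positive for CD31, CD45, SCA1 or CD11b. The mice were of mixed 129SV and C57BL/6 background, and the share of each strain in a library was not given. The labels gave 3 ASC libraries of each genotype, but the names of the 6 ASC columns (ASC-246, ASC-540, ASC-543, ASC-928, ASC-960 and ASC-1818) could be matched to the activated state only. The genotypes were therefore compared in QSCs alone.

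Libraries held 36886130 to 65750131 estimated counts. H2 genes took 0.0679 to 0.105% of the counts in QSCs, 0.0358 to 0.0647% in 5 ASC libraries and 0.16% in ASC-928. ASC-928 stood apart from the other ASC libraries, with 5184 CPM (counts scaled to the library size after TMM) summed over 17 markers of antigen presenting cells against 248 to 697, and 1692 CPM over the satellite cell markers against 2427 to 2726. Summed endothelial markers were at 475 CPM in it against 65.7 to 181 in the other ASC libraries, and mural markers at 1180 against 186 to 494. Counts of calls between states are given with and without it. Gli3 itself was at 10.102 ± 1.03 CPM (SD, n = 3) in QSC Gli3 Ctr and 8.86 ± 2.31 CPM in QSC Gli3 KO. Its log2 fold change was -0.22 ± 0.22 (SE), with an adjusted p of 0.916 by edgeR. Counts summed over a gene may change little when an exon is lost. The authors checked the excision in QSCs by RT-qPCR. Pax7, which defines satellite cells, was at 800 to 1181 CPM in the QSC libraries and between 50.9 and 117 CPM in the ASC libraries.

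All 28 genes lay on chromosome 17 of GRCm38, between positions 33974659 and 37274484. H2-K2, H2-K1 and H2-Ke6 lay at the proximal end, followed by the class II genes from H2-DMa (34119541 to 34139101) to H2-Eb1 (34305867 to 34316674), then H2-D1 (35262730 to 35267499), the Q genes, the T genes and the M genes up to H2-M3. Many of these genes are near copies of each other. The share of a gene's 31-base words that occur in no other gene's transcripts was 73.3% for H2-D1, 77.2% for H2-K1, 67.8% for H2-Q2, 51.6% for H2-T-ps, 49.0% for H2-T22 and 42.2% for H2-Q5. H2-T22 shared 47.2% of its words with H2-T10, and H2-T-ps shared 35.5% with H2-T23. Reads of such genes can be assigned to either copy. The classical class II genes had 98.9 to 99.7% of their words to themselves.

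RefSeq promoter windows, 250 bases before a start on GRCm38.p6, were available for 21 of the 28 genes. Those of a classical class I gene, of a nonclassical class I gene lower in ASCs (H2-Q4), of another nonclassical gene lower in ASCs (H2-Q10) and of a pair of classical class II genes are shown because these genes stand for the patterns below. Each is written 5′ to 3′ on the strand of its gene, at chr17:34000348-34000597 (minus) for H2-K1, chr17:35379367-35379616 (plus) for H2-Q4, chr17:35469839-35470088 (plus) for H2-Q10, chr17:34287824-34288073 (minus) for H2-Aa and chr17:34305617-34305866 (plus) for H2-Eb1. Capitals mark CCAAT, the letters TGACG found in X2 boxes, and GGATTCC, the core letters of the κB element, each on either strand.
H2-K1: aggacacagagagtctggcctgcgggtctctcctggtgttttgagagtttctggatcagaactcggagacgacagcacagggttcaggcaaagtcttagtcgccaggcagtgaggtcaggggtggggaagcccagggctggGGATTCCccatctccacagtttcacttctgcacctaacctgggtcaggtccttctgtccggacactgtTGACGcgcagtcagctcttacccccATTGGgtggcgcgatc
H2-Q4: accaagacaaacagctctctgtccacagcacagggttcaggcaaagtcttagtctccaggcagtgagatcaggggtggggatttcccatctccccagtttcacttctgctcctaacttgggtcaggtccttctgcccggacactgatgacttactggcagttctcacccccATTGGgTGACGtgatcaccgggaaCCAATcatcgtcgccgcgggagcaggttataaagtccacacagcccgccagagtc
H2-Q10: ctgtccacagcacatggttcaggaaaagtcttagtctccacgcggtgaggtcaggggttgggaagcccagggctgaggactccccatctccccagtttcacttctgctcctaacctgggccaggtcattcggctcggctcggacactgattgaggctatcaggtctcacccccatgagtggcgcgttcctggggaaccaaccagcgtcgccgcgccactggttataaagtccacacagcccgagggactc
H2-Aa: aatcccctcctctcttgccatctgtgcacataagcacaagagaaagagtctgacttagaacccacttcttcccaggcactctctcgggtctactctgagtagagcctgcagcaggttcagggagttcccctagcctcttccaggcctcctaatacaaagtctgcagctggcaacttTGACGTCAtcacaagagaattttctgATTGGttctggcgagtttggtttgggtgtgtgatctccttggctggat
H2-Eb1: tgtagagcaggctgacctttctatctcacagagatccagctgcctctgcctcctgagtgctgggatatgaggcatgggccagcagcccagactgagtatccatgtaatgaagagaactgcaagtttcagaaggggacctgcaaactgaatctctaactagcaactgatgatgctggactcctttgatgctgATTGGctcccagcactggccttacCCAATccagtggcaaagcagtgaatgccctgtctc
CCAAT was present in the window of 18 of the 21 genes, against 33.8% of all 32851 windows of this length. TGACG was present in 7 genes, against 17.8% of windows. GGATTCC was present in 5 genes, H2-K1, H2-D1, H2-Q6, H2-Q7 and H2-M5, against 3.17% of windows. The window of H2-Q10 held none of these letters, and in that of H2-Aa a TGACG on each strand overlapped. These are matches of letters and were not tested for binding.

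**Figure D1:**
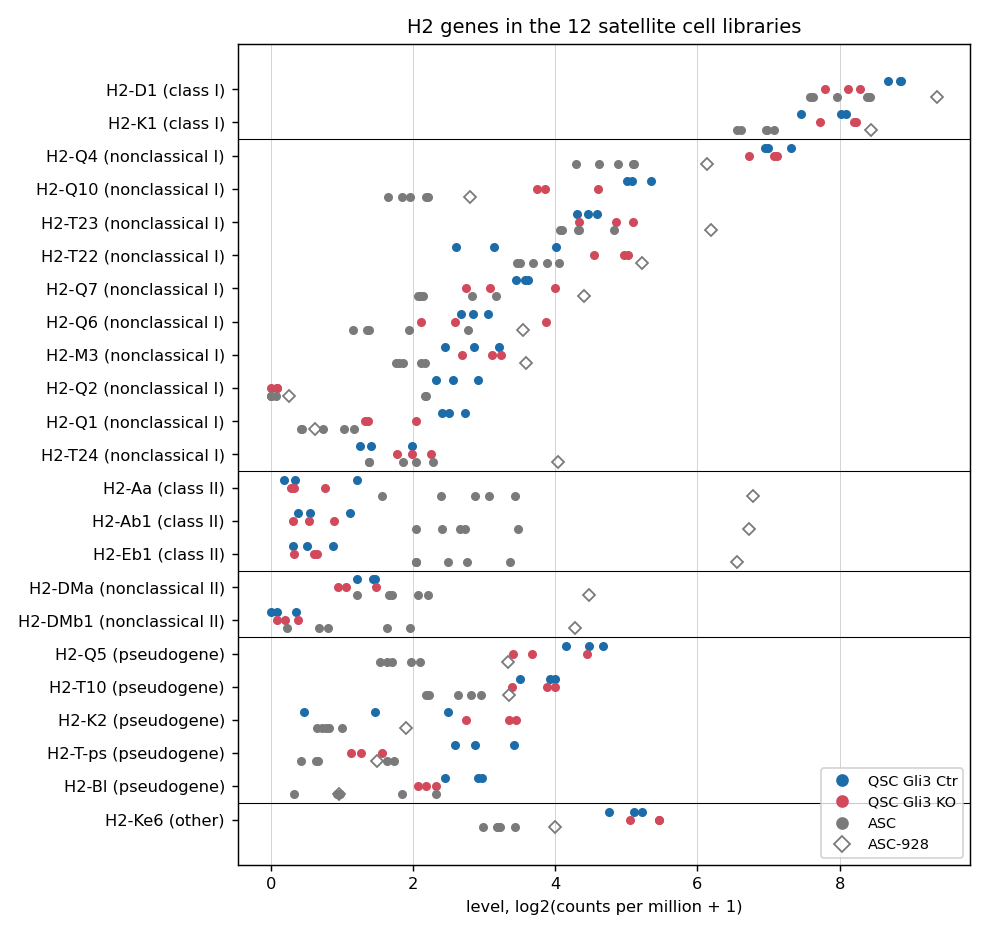
Level of the 23 H2 genes with a mean of at least 1 CPM in a group, as log2(CPM + 1) on the x axis, with a point for each of the 12 libraries and genes grouped by class on the y axis. Class II genes are near 0 in the 6 QSC libraries, and ASC-928 (open diamonds) lies to the right of the other ASC libraries for most genes.

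Class I genes summed to far more than class II genes in QSCs. Summed over the 15 class I genes, the level was 915 ± 57.8 CPM (SD, n = 3) in QSC Gli3 Ctr and 763 ± 135 CPM in QSC Gli3 KO. Class II genes summed to 2.45 to 5.84 CPM in these 6 libraries. Per kilobase of merged exons, the scale used here to order genes by level, H2-D1 was highest in QSC Gli3 Ctr at 172 ± 11.99 CPM per kb, followed by H2-K1 at 80.0 ± 17.9 and H2-Q4 at 52.2 ± 7.65. H2-Ke6 came next at 19.4 ± 3.23, then the pseudogene H2-Q5 at 13.1 ± 2.46, H2-Q10 at 7.94 ± 1.00 and H2-T23 at 7.25 ± 0.761. H2-K1 ranged from 59.5 to 92.6 and H2-Q4 from 47.2 to 61.0 CPM per kb, so these neighbours overlapped, as did H2-Q10 and H2-T23. In all, 23 of the 28 genes reached a mean of 1 CPM in some group, and H2-DMb2, H2-Ob, H2-T3, H2-M5 and H2-M9 did not.

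The first comparison asked which H2 genes differ between Gli3 KO and Gli3 Ctr QSCs. H2-Q2 and H2-T-ps fell, and no H2 gene rose, in edgeR's quasi-likelihood test, where a gene counted as called with a Benjamini-Hochberg p below 0.05 and a change of 1.2-fold or more. These are 2 of 28 members, where 0.351% of all 25093 genes were called, 0.187% higher and 0.163% lower. DESeq2 called 6 members, 1 higher and 5 lower, where it called 1.55% of genes, 0.774% in either direction. By edgeR, 8 of the 28 members were under an unadjusted p of 0.05, where 1785 of all 25093 genes were. The median log2 fold change was -0.15 over the 28 genes and -0.03 over all genes. Libraries of the genotypes did not overlap for 8 members, 2 higher and 6 lower in QSC Gli3 KO, where 13.1% of all genes did not overlap, 7.39% higher and 5.75% lower. Since the share of each strain in a library was not given, a difference by Gli3 genotype cannot be told apart from one by strain at this locus.

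H2-Q2 is a nonclassical class I gene between H2-Q1 and H2-Q4 (chromosome 17, 35342242 to 35346762). It had 160, 444 and 219 estimated counts in the 3 QSC Gli3 Ctr libraries and 3.01, 4.21 and 0 in the 3 QSC Gli3 KO libraries. In CPM these were 3.99, 6.53 and 4.90 against 0.0575, 0.0609 and 0. Every control library was thus well above every knockout library, and the gene was close to absent from the latter. The log2 fold change was -6.93 ± 0.57 (SE), with an adjusted p of 0.00107 by edgeR. Over the group sums, 824 counts against 7, the fold was 130, with an exact 95% interval of 62.9 to 325 that covers counting error only. The same gene had 146 counts in ASC-540 and 138 in ASC-543, 3.51 and 3.52 CPM, and 0 to 9.5 counts in the other 4 ASC libraries. Its neighbour H2-Q1, which shares 15.9% of its words with H2-Q2, was at 4.67, 4.31 and 5.66 CPM in controls and 1.49, 3.11 and 1.58 CPM in knockouts (log2 fold change -1.28 ± 0.32, adjusted p = 0.268 by edgeR). These groups did not overlap, and DESeq2 called H2-Q1 with an adjusted p of 0.0159. In ASC-540 and ASC-543, H2-T-ps was at 2.33 and 2.12 CPM, against 0.345 to 1.81 CPM in the other 4 ASC libraries. There H2-Bl was at 2.60 and 3.98 CPM, against 0.256 to 0.955 CPM, and H2-T22 over H2-T10 was 1.65 and 1.54, against 3.01 to 3.95. H2-D1, H2-Q10 and H2-K2 in both libraries lay within the range of the other 4.

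H2-T-ps is an unprocessed pseudogene among the T genes. Its levels were 5.02, 9.68 and 6.31 CPM in QSC Gli3 Ctr and 1.19, 1.40 and 1.95 CPM in QSC Gli3 KO. The groups did not overlap, and the highest control library was replicate 2. The log2 fold change was -2.24 ± 0.32 (SE), with an adjusted p of 0.0246 by edgeR. The adjusted p rose to 0.107 without QSC Gli3 KO replicate 1, 0.0987 without QSC Gli3 KO replicate 2, 0.072 without QSC Gli3 KO replicate 3 and 0.0643 without QSC Gli3 Ctr replicate 2, and it was 0.0592 with limma-voom.

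**Figure D2:**
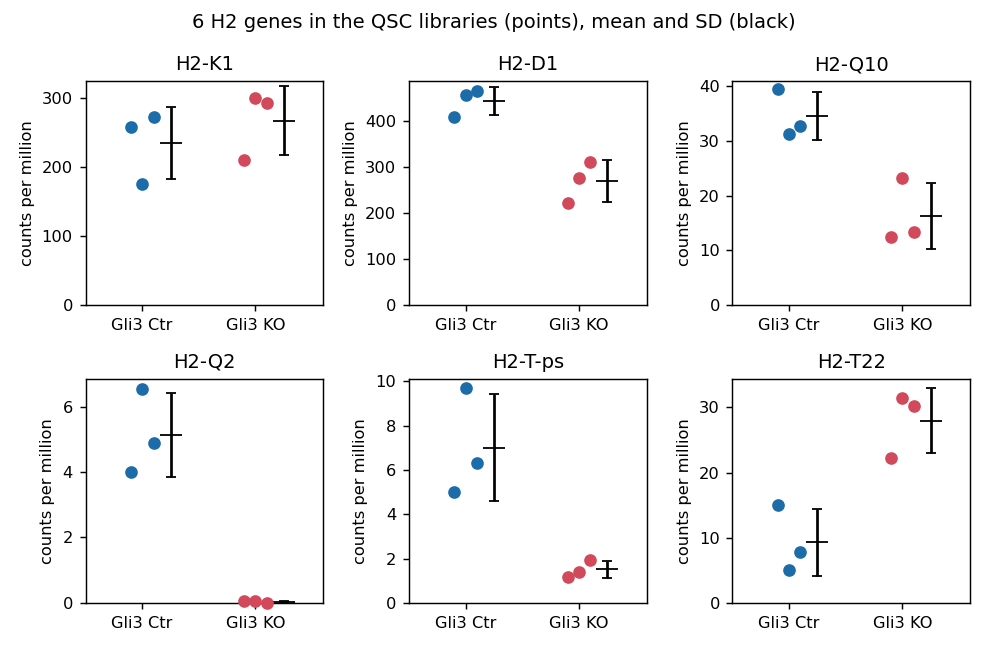
CPM of 6 H2 genes (y axes, each from 0) in the 3 QSC Gli3 Ctr and 3 QSC Gli3 KO libraries, one point per library, with mean and SD in black. H2-D1, H2-Q10, H2-Q2 and H2-T-ps are lower and H2-T22 is higher in every knockout library than in every control library, and H2-K1 overlaps.

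Neither classical class I gene was called by edgeR. H2-D1 had 408, 458 and 465 CPM in QSC Gli3 Ctr and 222, 277 and 312 CPM in QSC Gli3 KO, and the groups did not overlap. Its log2 fold change was -0.75 ± 0.16 (SE), but the adjusted p was 0.15 by edgeR. DESeq2 called it, with an adjusted p of 0.00375, and over the 13 alternatives the adjusted p ranged from 0.00375 to 0.41. H2-K1 had 258, 175 and 272 CPM in controls and 209, 299.6 and 292 CPM in knockouts, which overlapped, and a log2 fold change of 0.15 ± 0.21 (adjusted p = 0.94 by edgeR). The ratio of H2-D1 to H2-K1 was 1.58, 2.62 and 1.71 in the controls and 1.06, 0.924 and 1.07 in the knockouts. As a share of all class I counts, H2-D1 took 43.5, 53.9 and 48.7% in controls and 36.4, 33.6 and 36.4% in knockouts. Since the paralogs share words, part of a shift in this ratio can come from how reads are assigned, and this was not tested. The third abundant gene, H2-Q4, had 158, 123 and 126 CPM against 105, 138 and 133 CPM, and its log2 fold change was -0.14 ± 0.16 (adjusted p = 0.923 by edgeR).

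Among the other nonclassical class I genes, H2-T22 and H2-Q10 gave values in opposite directions. H2-T22, whose product is a ligand of some γδ T cell receptors, had 15.1, 5.10 and 7.76 CPM in controls and 22.3, 31.5 and 30.2 CPM in knockouts. Every knockout library was above every control library, with a log2 fold change of 1.57 ± 0.35 and an adjusted p of 0.172 by edgeR. The adjusted p was 0.00102 in DESeq2, 0.0162 without QSC Gli3 Ctr replicate 1, and 0.00102 to 0.56 over all 13 alternatives. H2-T10, its close copy, was at 14.2, 14.9 and 10.29 CPM in controls and 9.52, 13.8 and 15.03 CPM in knockouts, and these overlapped. H2-T22 over H2-T10 was 1.06, 0.343 and 0.754 in controls and 2.34, 2.27 and 2.01 in knockouts.

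H2-Q10, the gene of a secreted class I molecule, had 39.5, 31.3 and 32.8 CPM in controls and 12.4, 23.3 and 13.4 CPM in knockouts. All 3 knockout libraries were lower, with a log2 fold change of -1.11 ± 0.24 and an adjusted p of 0.15 by edgeR. DESeq2 gave an adjusted p of 0.00244, and the 13 alternatives ranged from 0.00244 to 0.581. The pseudogenes H2-K2 and H2-Bl also did not overlap between genotypes. H2-K2 had 4.64, 0.382 and 1.77 CPM in controls and 5.69, 9.18 and 9.86 CPM in knockouts (log2 fold change 1.86 ± 0.68, adjusted p = 0.577 by edgeR). H2-Bl had 6.54, 6.86 and 4.47 CPM against 4.02, 3.21 and 3.53 CPM (log2 fold change -0.76 ± 0.23, adjusted p = 0.425 by edgeR).

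The remaining class I members at 1 CPM or more, and H2-Q5 and H2-Ke6, gave overlapping groups. H2-T23, which encodes Qa-1, a ligand of the natural killer receptor CD94/NKG2A, was at 23.1, 21.0 and 18.7 CPM in controls and 19.2, 28.0 and 33.1 CPM in knockouts. H2-M3, which presents N-formylated peptides, averaged 6.31 ± 1.88 and 7.18 ± 1.56 CPM. H2-Q6 and H2-Q7, the Qa-2 genes, averaged 6.30 ± 0.987 and 10.7 ± 0.697 CPM in controls and 7.31 ± 5.50 and 9.37 ± 4.95 CPM in knockouts, where replicate 3 was the highest for both. H2-T24 averaged 2.01 ± 0.847 and 3.03 ± 0.672 CPM, H2-Q5 20.8 ± 3.92 and 14.1 ± 5.93 CPM, and H2-Ke6 31.9 ± 5.31 and 39.5 ± 6.36 CPM.

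Counts of class II genes in QSCs were small. H2-Aa, H2-Ab1 and H2-Eb1 had 6 to 53, 12 to 47 and 13 to 37 counts per library, highest in QSC Gli3 Ctr replicate 1 for H2-Aa and H2-Ab1. H2-DMa and H2-DMb2 had 48 to 118 and 19.2 to 41.04 counts, H2-DMb1 0 to 20 and H2-Ob 0 to 3. No class II member was called between genotypes or had an unadjusted p under 0.05 by edgeR. Of 9 genes of the class I light chain and peptide loading, 5 of the immunoproteasome, 5 of class II chaperoning and processing, 14 regulators of MHC genes and 5 of interferon gamma signaling, edgeR called 0 between the genotypes. Of these genes only Erap1, the peptidase that trims peptides for class I, had an unadjusted p under 0.05 (log2 fold change 0.30 ± 0.13, adjusted p = 0.688 by edgeR). The lowest p of the other lists belonged to Psme2 (0.30 ± 0.15), Ifi30 (0.29 ± 0.21), Nfkb1 (-0.59 ± 0.29) and Socs1 (-0.23 ± 0.20), none called. B2m, the light chain, was at 81.7 ± 7.76 and 94.3 ± 17.1 CPM, Tap1, a subunit of the peptide transporter, at 11.5 ± 2.64 and 15.6 ± 1.46 CPM, Nlrc5 at 0.684 ± 0.404 and 1.12 ± 0.302 CPM, and Ciita at 0.0825 ± 0.0549 and 0.0192 ± 0.0332 CPM. The summed markers of antigen presenting cells were 32.2, 16.7 and 15.01 CPM in controls and 20.6, 18.6 and 12.8 CPM in knockouts. Summed T and NK cell markers were at 0.615 ± 0.234 CPM in controls and 0.261 ± 0.0824 CPM in knockouts. Summed fibro-adipogenic markers were at 881 ± 136 and 1125 ± 74.6 CPM, but none of the 8 genes was called by edgeR, only Pi16 had an unadjusted p under 0.05, and their median was -0.08 on the log2 scale, with Dcn (0.35 ± 0.16), Dpt (0.26 ± 0.14) and Col15a1 (0.44 ± 0.24) above 0 and Pi16 (-1.08 ± 0.28), Ly6a, Pdgfra, Thy1 and Cd248 below it. Dpt at 375 to 538 CPM and Col15a1 at 219 to 538 CPM weighed most in the fibro-adipogenic sum, where Pdgfra was at 1.59 to 3.82 CPM. The T and NK cell sum and the fibro-adipogenic sum did not overlap between genotypes, whereas the endothelial, mural and satellite cell sums did. The part of T, NK or fibro-adipogenic cells in the H2 values was not tested.

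**Figure D3:**
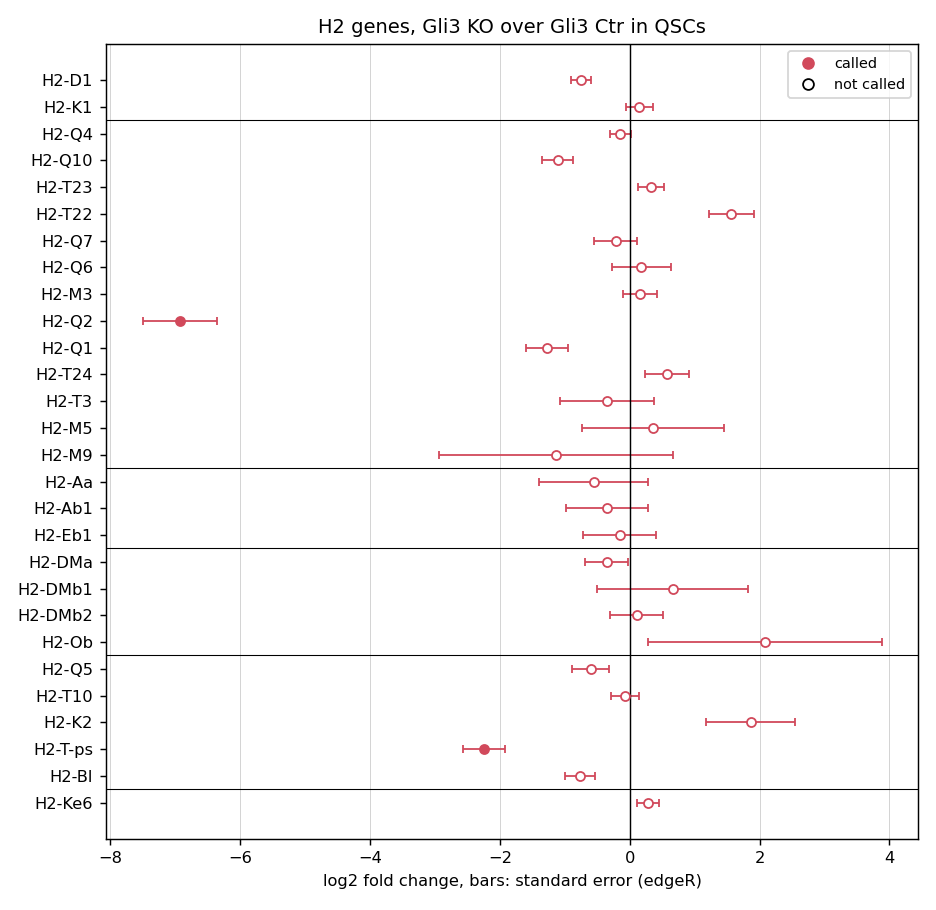
Log2 fold change of Gli3 KO over Gli3 Ctr in QSCs (x axis) with its standard error for the 28 H2 genes (y axis, grouped by class), from edgeR. Filled points are the called genes H2-Q2 at -6.93 and H2-T-ps at -2.24, and open points were not called.

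The second comparison asked how H2 genes differ between ASCs and QSCs, over both genotypes. Of the 7 class II genes 6 rose, and part of the class I genes and all 5 pseudogenes fell. Of the 28 members, 15 were called, 6 higher and 9 lower, where 59.2% of all genes were called, 30.4% higher and 28.8% lower. Without ASC-928, 19 were called, 6 higher and 13 lower, where 60.6% of all genes were called, 29.3% higher and 31.2% lower. The median log2 fold change was -0.56 over the members and -0.03 over all genes, and without ASC-928 these were -1.01 and -0.11. Libraries of the states did not overlap for 9 members, 3 higher and 6 lower, where 39.6% of all genes did not overlap, 20.6% higher and 19.1% lower. The share of members called was thus near that of all genes.

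The genes of classical class II molecules were higher in every ASC library than in every QSC library. H2-Aa, the I-A alpha chain, was at 0.134 to 1.32 CPM in QSCs, and at 1.95, 4.28, 7.37, 109, 9.77 and 6.29 CPM in ASC-246, ASC-540, ASC-543, ASC-928, ASC-960 and ASC-1818. H2-Ab1, the I-A beta chain, was at 0.237 to 1.17 CPM in QSCs, at 3.14 to 10.13 CPM in 5 ASC libraries and at 105 CPM in ASC-928. H2-Eb1, the I-E beta chain, was at 0.235 to 0.824 CPM in QSCs, at 3.10 to 9.28 CPM in the 5 and at 92.7 CPM in ASC-928. The 3 genes ordered the ASC libraries alike at the top, with ASC-928 first and ASC-960 second.

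The log2 fold changes of these genes were 5.61 ± 1.09 for H2-Aa, 5.27 ± 1.00 for H2-Ab1 and 5.40 ± 0.98 for H2-Eb1, with adjusted p of 0.000565, 0.000455 and 0.00032 by edgeR. Without ASC-928 they were 3.61 ± 0.58, 3.27 ± 0.43 and 3.43 ± 0.39, with adjusted p of 9.48e-05, 1.5e-05 and 3.84e-06. DESeq2 gave no p for any of the 3. H2-DMa and H2-DMb1, the chains of the molecule that exchanges class II peptides, rose by log2 fold changes of 1.98 ± 0.62 and 4.84 ± 1.14 (adjusted p = 0.0134 and 0.0023), or 0.78 ± 0.29 and 3.14 ± 0.79 without ASC-928 (adjusted p = 0.0302 and 0.00345). H2-Ob, a chain of the inhibitor of that molecule, had at most 3 counts in a QSC library, so that its fitted log2 fold change of 5.05 depends on the prior count. Its counts were 0 to 23 in 5 ASC libraries and 195 in ASC-928. H2-DMa stayed called in 17 of 20 alternatives and H2-Ob in 16 of 18, and with limma-voom their adjusted p were 0.0743 and 0.105. H2-DMa, H2-DMb1 and H2-Ob overlapped between states. In ASC-246, H2-DMa was at 1.32 CPM, against 0.919 to 1.80 CPM in QSCs, and H2-DMb1 at 0.171 CPM, against 0 to 0.305 CPM. H2-DMb2 was not called, and had a log2 fold change of 0.60 ± 0.77 that became -0.89 ± 0.53 without ASC-928.

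Markers of antigen presenting cells moved with class II. Of 17 such markers, where 30.4% of all genes were called higher and 28.8% lower, 11 rose, among them Ptprc (CD45), Itgam (CD11b), Adgre1 and Csf1r, and 0 fell, and without ASC-928 11 rose and 2 fell, among them the B cell gene Cd79a. Their sum was 12.8 to 32.2 CPM in QSCs, 248 to 697 CPM in 5 ASC libraries and 5184 CPM in ASC-928. Ptprc and Itgam, whose products the sort selected against, were at 9.39 to 28.1 and 17.9 to 45.7 CPM in the 5 libraries and at 209 and 238 CPM in ASC-928. In QSCs 9 of the 17 were under 1 CPM in every library. In ASCs 9 reached 1 CPM in every library, and Clec9a, Ms4a1 and Xcr1 stayed under it in every library. Summed T and NK cell markers were at 0.172 to 0.849 CPM in QSCs, 2.93 to 7.42 CPM in the 5 ASC libraries and 49.97 CPM in ASC-928. Summed fibro-adipogenic markers were at 736 to 1179, 54.6 to 177 and 670.0 CPM, but of the 8 genes 3 rose (Pdgfra, Ly6a and Cd248) and 3 fell (Dpt, Col15a1 and Thy1), with and without ASC-928. Per 100 CPM of the antigen presenting cell markers, class II genes summed to 18.2 to 21.3 CPM in QSCs and to 3.60 to 6.82 CPM in ASCs. Different genes weighed in these sums, so the ratios do not compare class II per cell. Cd68 was at 5.99 to 9.01 CPM in QSCs and 15.2 to 266 in ASCs, and Lyz2 at 2.60 to 13.1 and 158 to 3396. The highest class II gene was H2-DMa in every QSC library, at 0.919 to 1.80 CPM, and H2-Aa or H2-Ab1 in every ASC library. Class II RNA in these bulk libraries can come from more cells of a type or from more RNA per cell, which cannot be told apart, and the part of antigen presenting cells in the rise was not tested.

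**Figure D4:**
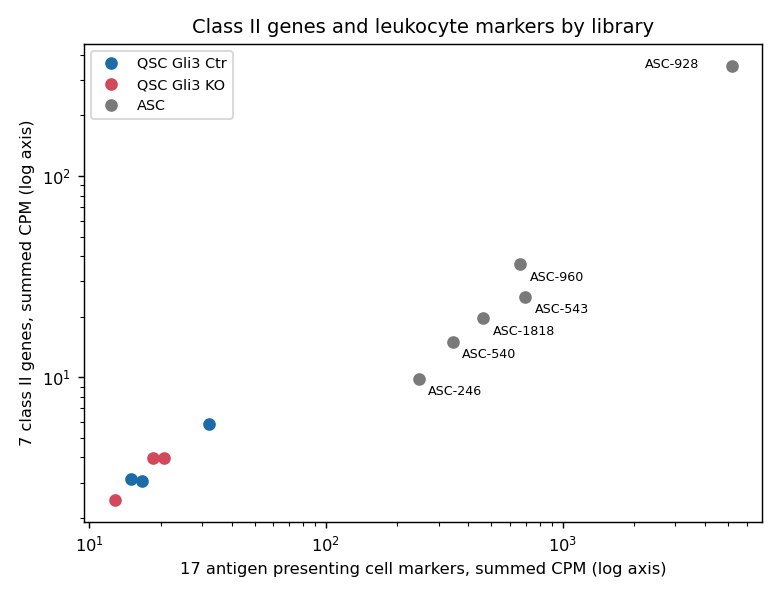
Summed CPM of the 7 class II genes (y axis, log scale) against summed CPM of 17 antigen presenting cell markers (x axis, log scale), one point per library. The 6 QSC libraries lie at 12.8 to 32.2 CPM of markers and 2.45 to 5.84 CPM of class II, 5 ASC libraries at 248 to 697 and 9.82 to 36.4 CPM, and ASC-928 at 5184 and 353 CPM. All values are shares of a library's counts.

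The partners of class II rose too. All 5 genes of class II chaperoning and processing rose, with and without ASC-928, where 30.4% and 29.3% of all genes were called higher. Cd74, the invariant chain, had a log2 fold change of 5.64 ± 1.02 (3.73 ± 0.47 without ASC-928), and Ctss, the protease that degrades it, 8.27 ± 1.08 (6.99 ± 0.68), with adjusted p of 0.000296 and 1.73e-05 by edgeR. Ctsl, another lysosomal protease, was already at 403 ± 61.9 CPM in QSC Gli3 Ctr and had the lowest p of the list, at a log2 fold change of 2.12 ± 0.13 (adjusted p = 1.19e-08). Ciita had 0 to 6 counts in a QSC library, 4 to 21 in 5 ASC libraries and 459 in ASC-928. In CPM these were 0 to 0.134, 0.0961 to 0.537 and 8.91, so the states overlapped near the floor. It rose by a log2 fold change of 5.04 ± 1.30 (adjusted p = 0.00432 by edgeR), or 2.45 ± 0.84 without ASC-928 (adjusted p = 0.0211).

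Classical class I genes were not called. H2-K1 was at 175 to 299.6 CPM in QSCs and at 96.6, 125, 134, 346, 124 and 92.6 CPM in the ASC libraries in the order above, and its log2 fold change was -0.71 ± 0.30 with an adjusted p of 0.0513 by edgeR. Without ASC-928 all 5 ASC libraries were below all QSC libraries, and the log2 fold change was -1.16 ± 0.15 (adjusted p = 1.37e-05). H2-D1 was at 222 to 465 CPM in QSCs and at 191, 334, 342, 661, 248 and 196 CPM in ASCs, and its log2 fold change was -0.12 ± 0.30 (adjusted p = 0.751) and -0.48 ± 0.22 (adjusted p = 0.0739) without ASC-928. The ratio of H2-D1 to H2-K1 was 1.91 to 2.67 in the 6 ASC libraries and 0.924 to 2.62 in QSCs.

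Of the nonclassical class I genes, H2-Q4, H2-Q10 and H2-Q1 fell. H2-Q4 was at 105 to 158 CPM in QSCs and at 18.5 to 69.1 CPM in ASCs, highest in ASC-928, and its log2 fold change was -1.92 ± 0.26 (adjusted p = 2.75e-05 by edgeR). H2-Q10 was at 12.4 to 39.5 CPM and at 2.12 to 5.98 CPM, with -2.88 ± 0.34 (adjusted p = 6.6e-06). H2-Q1 was at 1.49 to 5.66 CPM and at 0.345 to 1.25 CPM, with -2.31 ± 0.44 (adjusted p = 0.00045). None of the 3 overlapped between states, and without ASC-928 they had -2.28 ± 0.16, -3.14 ± 0.32 and -2.28 ± 0.46. Without ASC-928, H2-M3, H2-Q6 and H2-Q7 were called lower as well, with log2 fold changes of -1.26 ± 0.21, -1.41 ± 0.44 and -1.09 ± 0.30.

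No T gene of class I was called between states. H2-T23 was at 18.7 to 33.1 CPM in QSCs, at 15.8 to 27.5 CPM in 5 ASC libraries and at 72.3 CPM in ASC-928, with a log2 fold change of 0.25 ± 0.35 that became -0.32 ± 0.18 without ASC-928, neither called. H2-T22 had -0.19 ± 0.45 (-0.62 ± 0.39 without ASC-928) and H2-T24 0.90 ± 0.53 (-0.0081 ± 0.31), also not called, and H2-T24 was at 15.4 CPM in ASC-928 against 1.59 to 3.86 CPM in the other 5. H2-T3, H2-M5 and H2-M9 had at most 28.9 counts in any library and were not called in either comparison.

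All 5 pseudogenes fell, by log2 fold changes of -2.28 ± 0.40 for H2-Q5, -2.29 ± 0.66 for H2-K2, -1.72 ± 0.62 for H2-T-ps, -1.57 ± 0.51 for H2-Bl and -1.18 ± 0.24 for H2-T10, with adjusted p of 0.000234, 0.00841, 0.0277, 0.0174 and 0.000778 by edgeR. Without ASC-928 they had -2.84 ± 0.26, -2.85 ± 0.63, -1.89 ± 0.66, -1.50 ± 0.52 and -1.39 ± 0.20 in the same order, all called. H2-T-ps stayed called in 14 of 20 alternatives, H2-K2 in 18 and H2-Bl in 19. The adjusted p of H2-T-ps was 0.0538 to 0.0949 when QSC Gli3 Ctr replicate 2, QSC Gli3 Ctr replicate 3, ASC-246, ASC-960 or ASC-1818 was left out. H2-T-ps, H2-K2 and H2-Bl also did not overlap between the QSC genotypes. With only QSC Gli3 KO libraries as QSCs, an alternative chosen after the data were seen, H2-T-ps had -0.24 (adjusted p = 0.772), and with only QSC Gli3 Ctr libraries H2-K2 had -1.08 (adjusted p = 0.227). H2-Ke6 fell by 1.93 ± 0.19 on the log2 scale (adjusted p = 1.47e-06) and by 2.14 ± 0.14 without ASC-928, and 76.1% of its words are shared with the overlapping gene Gm20427.

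**Figure D5:**
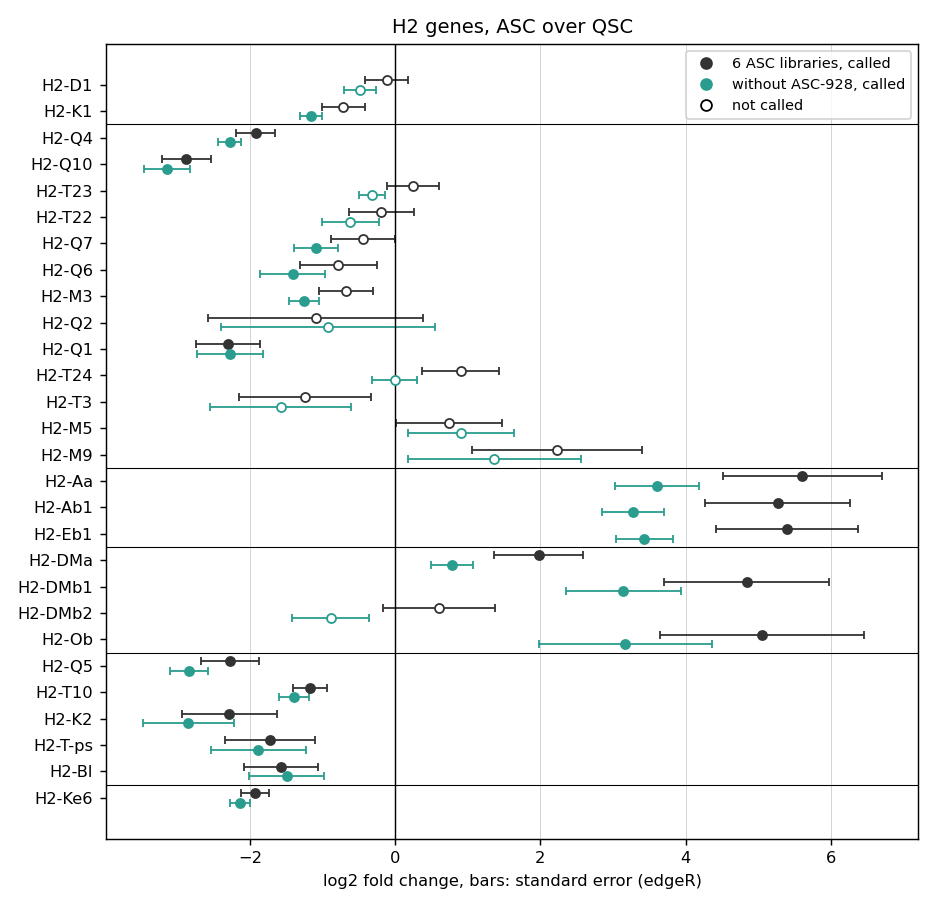
Log2 fold change of ASC over QSC (x axis) with its standard error for the 28 H2 genes (y axis, grouped by class), from edgeR with all 6 ASC libraries (dark) and without ASC-928 (green). Filled points are called, and the 6 called class II genes stay above 0 and the called class I genes and pseudogenes below 0 in both fits.

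The light chain of class I and most genes of peptide loading rose. B2m was at 88.0 ± 13.7 CPM in QSCs (n = 6) and at 92.8, 114, 159, 451, 149 and 105 CPM in the ASC libraries, and its log2 fold change was 1.02 ± 0.34 (adjusted p = 0.0191 by edgeR) and 0.46 ± 0.15 without ASC-928 (adjusted p = 0.0141). The summed class I heavy chains per B2m CPM were 10.61 to 11.7 in QSC Gli3 Ctr, 6.94 to 10.13 in QSC Gli3 KO and 2.77 to 4.73 in ASCs. Of the 9 genes of the light chain and loading list, where 30.4% of all genes were called higher and 28.8% lower, 7 rose, including Tap1 (1.19 ± 0.19, adjusted p = 0.000119) and Pdia3, which helps to fold class I (1.43 ± 0.13, adjusted p = 6.29e-07), and Erap1 fell by 0.68 on the log2 scale (adjusted p = 0.00266). Counts were the same without ASC-928, where the log2 fold changes of Tap1, Pdia3 and Erap1 were 1.03, 1.38 and -0.88.

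Of 5 immunoproteasome genes, 3 rose, and without ASC-928 2 did, against 30.4% and 29.3% of all genes called higher. Psmb8, a catalytic subunit, had 1.05 ± 0.40 (adjusted p = 0.034 by edgeR) and 0.52 ± 0.26 without ASC-928 (adjusted p = 0.102), and Psmb10, another, had 1.68 ± 0.18 (adjusted p = 2.15e-06) and 1.59 ± 0.17 without ASC-928. Of 14 regulators, 2 rose and 6 fell, and without ASC-928 3 rose and 7 fell, where 59.2% and 60.6% of all genes were called. Rfx5, a subunit of the complex that binds X boxes, had the lowest p of this list and fell by 1.02 ± 0.13 (adjusted p = 1.28e-05) and by 1.03 ± 0.13 without ASC-928. Nlrc5 rose by a log2 fold change of 2.44 ± 0.55 (adjusted p = 0.00169), or 1.62 ± 0.34 without ASC-928. Irf1, an interferon-induced activator of class I genes, fell by 1.47 ± 0.20 (adjusted p = 2.82e-05) and by 1.63 ± 0.19 without ASC-928. Of 5 genes of interferon gamma reception and signaling, where 30.4% of all genes were called higher, 2 rose, Ifngr2 (1.78 ± 0.17, adjusted p = 8.83e-07) and Socs1 (0.99 ± 0.14, adjusted p = 3e-05), and without ASC-928 these had 1.55 ± 0.09 and 1.01 ± 0.13 and Ifngr1, Jak1 and Jak2 fell.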

How the data were processed

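Polyadenylated RNA of sorted satellite cells was sequenced in 12 libraries. The authors mapped reads to GRCm38 GENCODE transcripts with salmon, summed them to genes with tximport and kept genes with a minimum of reads in some samples, and the deposited table gives estimated counts per gene. The comparison tables that the authors deposited hold group means, fold changes and p-values; only their biotypes were used. Estimated counts (48.0% not whole) were rounded, normalised by TMM and tested with edgeR 4.0.16 in R 4.3.3 over all 25093 genes, with Benjamini-Hochberg adjustment. Calls needed an adjusted p below 0.05 and a change of 1.2-fold or more. DESeq2 1.42.0, limma-voom (limma 3.58.1), other scalings, filters on low counts and leaving out libraries were alternatives, and the code was tested on simulated data. Values are CPM after TMM over the 12 libraries, as mean ± SD, and fold changes carry ± SE. For edgeR this SE is an approximation, the size of the log2 fold change divided by the square root of its quasi-likelihood F. The QSC columns matched a genotype and replicate; the ASC columns matched the state only, so the genotype effect in ASCs and the interaction were not analysed here. Replicates differed by far more than sampling noise. Where labels do not say that samples came from separate animals, p-values measure the spread between these samples.

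Genes named were all classical class I and class II members, called members, other members with a mean of at least 1 CPM in a group, and for the pathway lists B2m, Tap1, Psmb8, Cd74, Nlrc5, Ciita, Irf1 and those called or lowest in p; called list genes beyond the examples are given as counts, and some list genes are not reported here. The members and lists were chosen with earlier results of these data known. Coordinates and 31-base words came from GENCODE vM21, whose gene version matched that of 17 of the 28 members, and promoters from RefSeq. Intervals cover counting error only. With 3 libraries against 3, an exact permutation test of a single gene could not give a p below 0.1, so none was used.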

Additional observations from a re-analysis of the deposited data

Results flagged for a closer look

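In groups of 6 libraries, 21 of 62 sets of values had a library whose gap to its nearest neighbour took more than 0.625 of the whole range. All 21 were ASC sets with ASC-928 as the high library, and 0 were QSC sets. Chance flags about 1 in 20 groups of normally distributed values, a condition not checked for these CPM, and the sets share the same libraries. The QSC sets pooled both genotypes, so a gene split between them, such as H2-Q2, could hardly be flagged. The values of ASC-928, in CPM, were 346 for H2-K1 and 661 for H2-D1 among classical class I genes. They were 69.1 for H2-Q4, 72.3 for H2-T23, 36.4 for H2-T22, 20.2 for H2-Q7, 15.4 for H2-T24 and 11 for H2-M3 among nonclassical class I genes. Class II genes were at 109 for H2-Aa, 105 for H2-Ab1, 92.7 for H2-Eb1, 21.2 for H2-DMa, 18.3 for H2-DMb1, 3.8 for H2-DMb2 and 3.79 for H2-Ob. Outside these, ASC-928 had 9.05 for H2-Q5, 2.74 for H2-K2 and 14.9 for H2-Ke6. Summed over classes it had 1007 for classical class I, 242 for nonclassical class I and 353 for class II. H2-Q10, H2-Q1, H2-Q2, H2-Q6, H2-Bl, H2-T-ps, H2-T10, H2-T3, H2-M5 and H2-M9 were not set apart in ASC-928 by this measure.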

How the results depend on the processing

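The count of H2 genes called between QSC genotypes, 2, was 6 with DESeq2 (1 higher, 5 lower, where 1.55% of all genes were called), 1 with limma-voom, 1 when at least 10 counts were required in every library, and 1 to 3 when each library was left out. The filter left H2-Q2 untested. The count between states, 15, stayed within 1.5 times under every alternative, at 14 to 19 with a library left out. With only QSC Gli3 Ctr or only QSC Gli3 KO as QSCs, chosen after the data were seen, it was 13 and 11. With the replicate block, 2 H2 genes and 79 genes in all were called in QSCs, against 88 without it. Same-numbered libraries correlated at -0.28, -0.02 and -0.07, and differently numbered ones at -0.24 to 0.33. These values gave no sign of pairing by number but, with so few libraries per group, cannot settle it. No block could be made for the states because the ASC columns carry no replicate number. Mean length of transcripts in place of merged exons moved levels in QSC Gli3 Ctr to 491 CPM per kb for H2-D1, 233 for H2-K1, 61.8 for H2-Q4, 26.9 for H2-Q5, 13.3 for H2-Q10 and 12.3 for H2-T23, in the same order. Class totals moved by less than their SD with other scalings. Changes of direction were in members not called. Over libraries left out, log2 fold changes ran from -0.020 to 0.30 for H2-K1 and -0.21 to 0.10 for H2-T10 between genotypes, and between states from -0.48 to 0.034 for H2-D1, -0.89 to 0.89 for H2-DMb2, -0.62 to 0.024 for H2-T22, -0.32 to 0.41 for H2-T23 and -0.0081 to 1.08 for H2-T24. H2-DMb2 was at -0.60 with limma-voom. With only QSC Gli3 KO as QSCs, H2-D1 was at 0.27 and H2-Q2 at 4.81, and with only QSC Gli3 Ctr, H2-T22 was at 0.80. The causes were not tested. Summed to a single feature, class I had -0.29 ± 0.16 between genotypes and -0.52 ± 0.28 between states (-0.92 ± 0.15 without ASC-928).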
